A study of Mus musculus with 6 samples.

Results

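The Notch pathway genes examined here are 4 receptors (Notch1, Notch2, Notch3 and Notch4), 4 ligands (Jag1, Jag2, Dll1 and Dll4) and 2 target genes (Hes1 and Hey1), taken by gene symbol from a deposited expression table of 23412 genes. All 10 symbols had a row. RNA came from the ventral dermis of 6 mice aged 3 weeks. Of these, 3 were mutants of the genotype HoxB6CreERT/+; R26-YFP/+; CatnbΔex3/+, and 3 were littermate controls of the genotype HoxB6CreERT/+; R26-YFP/+. All mice were of mixed CD1 and C57BL/6 background, and all were exposed to tamoxifen through the mother at embryonic day 16.5. The controls thus carried the inducible Cre recombinase and the yellow fluorescent reporter and received the drug, and did not carry the conditional beta-catenin allele. Loss of exon 3 on that allele stabilises beta-catenin, the messenger of canonical Wnt signalling, in cells in which the Hoxb6-driven Cre acts, and the share of cells with the recombined allele was not measured here.

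Notch receptors are single-pass membrane proteins that are activated by ligands of the Jagged and Delta-like families on a neighbouring cell. Ligand binding leads to 2 cuts of the receptor, by an ADAM protease and by gamma-secretase, and the freed intracellular domain joins the DNA-binding protein RBPJ to switch on target genes of the Hes and Hey families. In skin the pathway is known for its part in differentiation of the epidermis and hair follicle, and in blood vessels for arterial fate and for the coverage of vessels by mural cells. The comparison asks whether RNA of these genes differs between such dermis and that of littermates.

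No receptor, ligand or target passed the test between mutant and control dermis. In the deposited values the mutant means of the receptors Notch1, Notch2 and Notch3 and of the ligand Jag1 were 0.866, 0.952, 0.883 and 0.909 times the control means, and those of the target Hey1 and the ligand Dll4 were 1.38 and 1.48 times as high. Of the 8 members with a mean of at least 1 FPKM, which were tested, 0 were called (limma on log2(FPKM + 1) with Benjamini-Hochberg adjustment over all 12560 genes tested; adjusted p from 0.512 to 0.950, and 0 of 8 at an unadjusted p under 0.05). Among all tested genes 0.143% were called higher and 0% lower, and at an unadjusted p under 0.05 the shares were 10.5% and 0.748%. FPKM is fragments assigned to a gene divided by the gene's length and by the library's depth, so levels can be compared between genes.

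Gene reads per library ran from 7799565 to 13478910, and each of the 3 mutant libraries was deeper than every control library. A library-wide offset touches most values below: the factors from median-of-ratios scaling, set by the typical gene of a library, were lowest in control 2 (0.878) and mutant 2 (0.916) and highest in mutant 1 (1.19). Control 2 was the lowest of the controls in 10 of the 10 members, and mutant 2 was the lowest of the mutants in 7. Y-linked genes were expressed in control 3 and in the 3 mutants and not in controls 1 and 2, so sex was not balanced. A fit with a term for library sex therefore sets the mutants against control 3 alone. Mutant 2 stood apart: beside its Y-linked RNA it had 6.47 FPKM of Xist, against 0.0827 to 0.184 in the other 3 libraries with Y-linked RNA and 55.5 and 66.2 in controls 1 and 2. Ctnnb1 itself, on chromosome 9 (120929216 to 120960507, GRCm38), averaged 182 ± 19.4 FPKM over the controls and 165 ± 28.7 over the mutants (± SD, n = 3; limma adjusted p = 0.895). A value for the whole gene cannot show the loss of 1 exon and so checks no label. The Wnt targets Axin2 and Lef1 had log2 differences of 0.27 and -0.31 with limma adjusted p of 0.461 and 0.464.

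Within a library the 10 genes spanned a wide range of levels in nearly the same order. Jag1 was highest in every library, with a mean of 40.1 ± 2.18 FPKM in controls, followed by Notch1 (36.8 ± 2.51), Hes1 (28.1 ± 1.16), Notch2 (25.4 ± 1.76), Jag2 (13.9 ± 1.75) and Notch3 (10.2 ± 1.25; n = 3 each). Dll1 (2.98 ± 0.288), Hey1 (1.73 ± 0.538), Notch4 (0.747 ± 0.206) and Dll4 (0.538 ± 0.135) were far lower. Ranges over the 6 libraries overlapped between Jag1 and Notch1, between Notch1 and Hes1, between Hes1 and Notch2, and between Notch4 and Dll4, so the spread over libraries does not separate these neighbours. Within a library, Jag1 was above Notch1 and Hes1 above Notch2 in 6 of 6 libraries, and Notch1 was above Hes1 and Notch4 above Dll4 in 5 of 6. The other 5 neighbouring pairs did not overlap in range. Of the summed receptor FPKM, Notch1 made up 49.2% to 51.0% in controls and 47.1% to 50.2% in mutants, and Notch4 at most 1.45% in any library. The share of Notch2 was 34.3% to 35.1% in controls and 35.3% to 38.0% in mutants, narrowly without overlap.

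**Figure D1:**
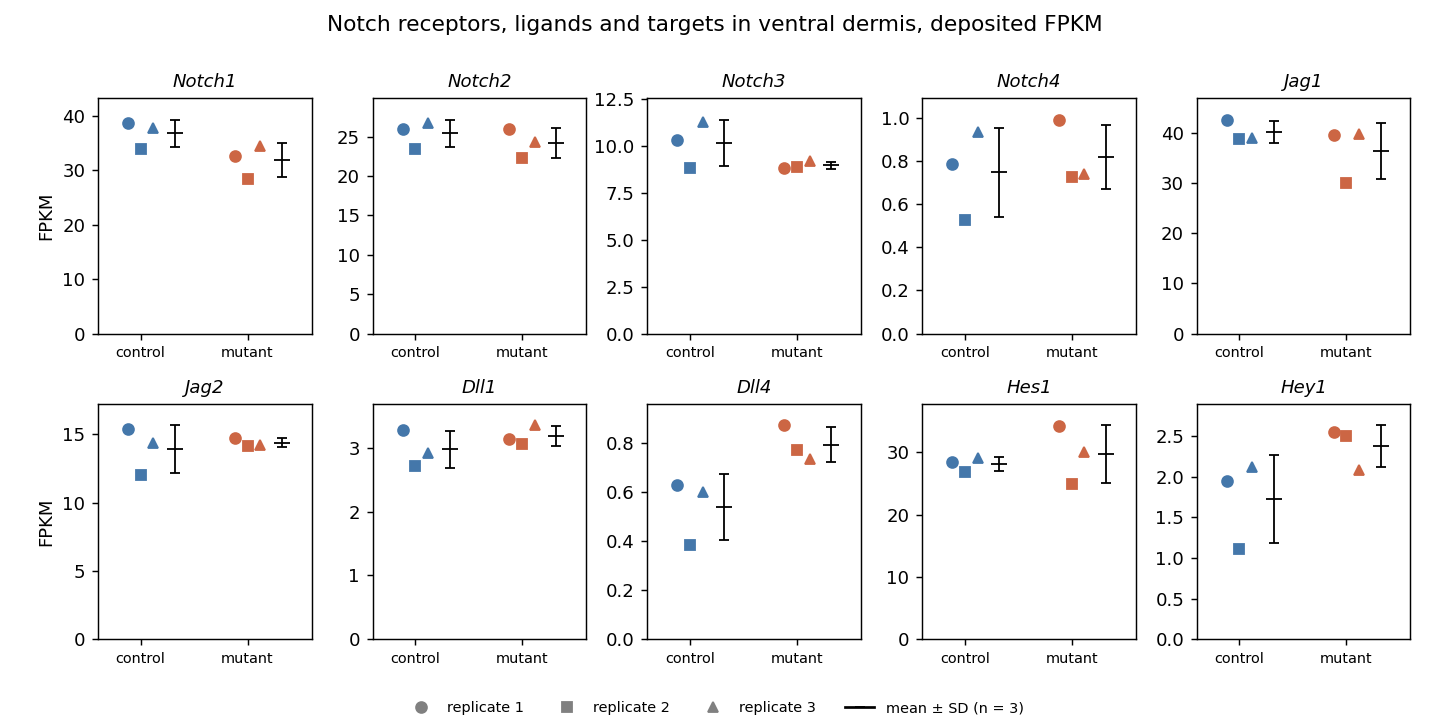
FPKM (vertical axis, from 0) of the 10 Notch genes in 3 control (blue) and 3 mutant (orange) libraries; marker shape gives the replicate number, and black bars are mean ± SD (n = 3). Groups overlap in 9 of the 10 panels, and Dll4 is the exception, with mutants from 0.735 to 0.874 and controls from 0.384 to 0.630 FPKM.

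The receptors are described first. Notch1, on chromosome 2 (26457903 to 26516663, minus strand, GRCm38), is the main receptor of the suprabasal epidermis and hair follicle. Controls 1 to 3 had 38.6, 33.9 and 37.8 FPKM, and mutants 1 to 3 had 32.6, 28.4 and 34.5. Mutants 1 and 2 lay below all controls and mutant 3 lay between controls 2 and 3. The log2 difference was -0.20 (SE 0.16, 95% interval -0.56 to 0.15; limma adjusted p = 0.728), so a change from 0.680 to 1.11 times the control level lies within the interval. Without mutant 2 the difference was -0.13. These values rest on 5105 to 6966 reads per library.

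Notch2 (chromosome 3, 98013527 to 98150361), a receptor expressed broadly in mesenchyme and epithelium, had 26.0, 23.4 and 26.8 FPKM in the controls, and the mutants had 26.0, 22.3 and 24.3. The groups overlapped almost fully, with a log2 difference of -0.07 (95% interval -0.39 to 0.26; limma adjusted p = 0.928), or -0.013 without mutant 2. Notch3 (chromosome 17, 32120820 to 32166852), the receptor typical of pericytes and vascular smooth muscle, had 10.3, 8.83 and 11.3 FPKM in the controls, and the mutants had 8.84, 8.88 and 9.20. Control 2 alone was as low as the mutants, and the mutants differed little among themselves (SD 0.194 FPKM, against 1.25 for the controls). Its log2 difference was -0.16 (95% interval -0.45 to 0.14; limma adjusted p = 0.756). Notch4 (chromosome 17, 34564268 to 34588503), an endothelial receptor, had 0.783, 0.525 and 0.932 FPKM in the controls, and the mutants had 0.990, 0.724 and 0.740, all from 55 to 128 reads. It fell below the filter, its groups overlapped, and without a filter its log2 difference was 0.06 (95% interval -0.21 to 0.33; limma adjusted p = 0.902).

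Among the ligands, Jag1 (chromosome 2, 137081456 to 137116644, minus strand) is a Jagged ligand of hair follicle and vessel wall. The controls had 42.6, 38.7 and 39.0 FPKM, and the mutants had 39.6, 30.01 and 39.7. Mutants 1 and 3 lay within the range of the controls, and mutant 2 was lower. The log2 difference was -0.14 (95% interval -0.53 to 0.24; limma adjusted p = 0.847), and without mutant 2 it was -0.015. Jag2 (chromosome 12, 112907819 to 112929776) is an epithelial Jagged ligand. The controls had 15.4, 12.01 and 14.3 FPKM, the mutants had 14.8, 14.1 and 14.2, and every mutant lay inside the range of the controls (log2 difference 0.05, 95% interval -0.26 to 0.36; limma adjusted p = 0.950).

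The Delta-like ligands were the lower pair of ligands. Dll1 (chromosome 17, 15367354 to 15376872) had 3.29, 2.72 and 2.93 FPKM in the controls, and the mutants had 3.15, 3.06 and 3.36, with overlapping groups and a log2 difference of 0.08 (95% interval -0.18 to 0.33; limma adjusted p = 0.892). Dll4 (chromosome 2, 119325784 to 119335962), the Delta-like ligand of arterial and sprouting endothelium, had 0.630, 0.384 and 0.601 FPKM in the controls, and the mutants had 0.874, 0.774 and 0.735. All 3 mutants lay above all 3 controls. That was the case in 13% of all tested genes, while 2.65% had all mutants below all controls. The tested genes leave out Dll4 and other genes of its level, for which no share was taken. With 21 to 37 reads in a control library and 54 to 59 in a mutant library it is the least covered member. It did not reach the filter, and without a filter its log2 difference of 0.23 (95% interval 0.02 to 0.43) did not pass (limma adjusted p = 0.472). Of the summed ligand FPKM, Dll4 made up 0.712% to 1.06% in controls and 1.27% to 1.61% in mutants. The shares of Dll1 (5.05% to 5.31%, then 5.39% to 6.38%) and of Jag1, the bulk of the sum (68.6% to 71.9%, then 62.5% to 68.4%), did not overlap either, Dll1 being higher and Jag1 lower in mutants. Shares of 1 sum depend on each other, so this shift is not particular to Dll4.

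Hes1 and Hey1 encode repressor proteins that are direct readouts of Notch activity in many tissues. Hes1 (chromosome 16, 30064384 to 30067796) had 28.5, 26.9 and 29.1 FPKM in the controls, and the mutants had 34.2, 25.0 and 30.1. Mutant 2 was the lowest and mutant 1 the highest of all 6 libraries, and the log2 difference was 0.07 (95% interval -0.30 to 0.43; limma adjusted p = 0.940). Hey1 (chromosome 3, 8663359 to 8667256, minus strand) had 1.94, 1.12 and 2.12 FPKM in the controls, and the mutants had 2.55, 2.51 and 2.09, all from 39 to 118 reads. Mutants 1 and 2 lay above all controls, mutant 3 lay just under control 3, and control 2 was the lowest library. Its log2 difference of 0.33 (SE 0.16, 95% interval -0.04 to 0.70) had the lowest adjusted p of the tested members (limma adjusted p = 0.512). Leaving out control 2 gave 0.15. A term for library sex, which sets the mutants against control 3 alone, gave 0.11. The control SD of Hey1 was 31.2% of its mean, the largest relative spread among the 10 genes.

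**Figure D2:**
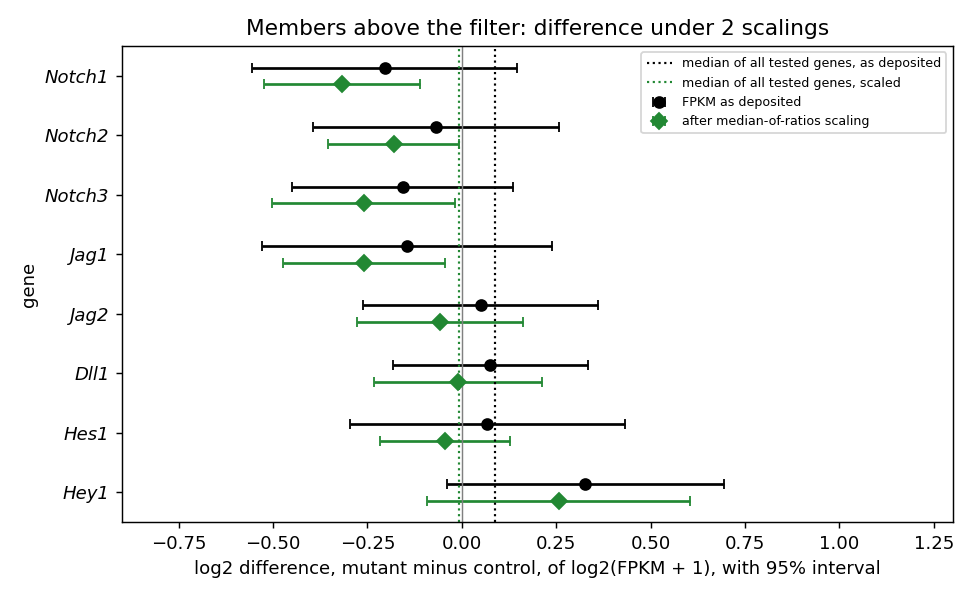
Log2 difference (mutant minus control, of log2(FPKM + 1), horizontal axis) with its 95% interval for the 8 Notch genes above the filter, as deposited (black circles) and after median-of-ratios scaling (green diamonds); dotted lines are the medians of all tested genes, 0.09 and -0.01. All 8 intervals include 0 as deposited, and those of Notch1, Notch2, Notch3 and Jag1 lie below 0 after scaling.

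Because the deposited values were offset between libraries, the members were also read after median-of-ratios scaling, which moved the median log2 difference of all tested genes from 0.09 to -0.01. Under quantile normalization that median was -0.03. After median-of-ratios scaling the scaled FPKM of Notch1 was 37.9, 38.6 and 37.8 for the controls, and for the mutants it was 27.4, 31.0 and 33.0. Scaling brought the 3 controls within a narrow band and left all 3 mutants below it, with a log2 difference of -0.32 (95% interval -0.52 to -0.11; limma adjusted p = 0.172). Jag1 had 41.8, 44.1 and 39.0 in the controls, against 33.2, 32.8 and 38.0 for mutants (log2 difference -0.26, limma adjusted p = 0.240), with mutant 3 close to control 3. Notch3 had 10.1, 10.1 and 11.3 in the controls, against 7.42, 9.702 and 8.79 for mutants (log2 difference -0.26, limma adjusted p = 0.277), and Notch2 had a difference of -0.18 (limma adjusted p = 0.290). In these 4 of the 8 tested members the mutants lay wholly below the controls, as in 10.7% of all tested genes (12.6% lay wholly above them), and the same 4 had an unadjusted p under 0.05 in that direction, as 6.14% of tested genes had, while 10.5% had it in the other direction. None passed the adjusted threshold. Limma-voom on recovered reads gave the same 4 genes an unadjusted p under 0.05, quantile normalization gave Notch1, Notch3 and Jag1, the scaled fit without control 2 gave Notch1 and Notch3, the scaled fit without mutant 2 gave Notch1, Notch2 and Notch3, and the scaled fit with library sex as a covariate gave Notch3. Notch1, Notch2, Notch3 and Jag1 had log2 differences of -0.33, -0.22, -0.34 and -0.22 in the scaled fit without mutant 2. Hes1, Jag2 and Dll1 changed sign with scaling and had scaled log2 differences of -0.05, -0.06 and -0.01, and Hey1 stayed above 0 at 0.26 (limma adjusted p = 0.420), or 0.12 without control 2 as well. Whether the receptors and Jag1 differed from the targets in their change was not tested.

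**Figure D3:**
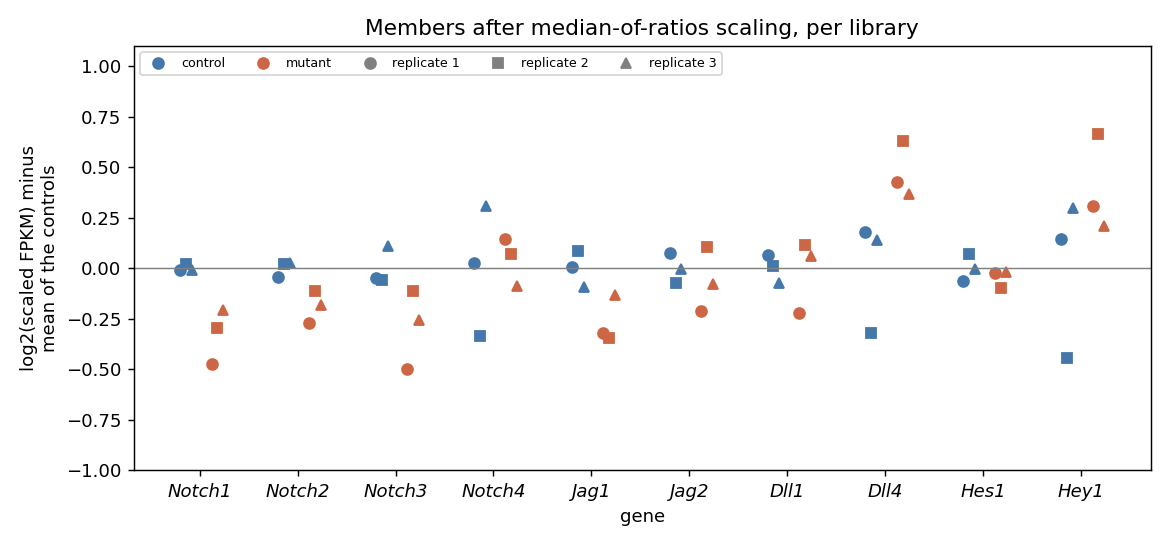
Log2 of scaled FPKM minus the mean of the 3 controls (vertical axis) for each Notch gene in each library, controls in blue and mutants in orange, with the replicate number as marker shape. The mutants lie wholly below the controls in Notch1, Notch2, Notch3 and Jag1, wholly above them in Dll4, and overlap with them in the other 5 genes.

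The promoters of Notch1 and Jag1, which lay lower in mutants after scaling, of Dll4, whose deposited values did not overlap, and of 2 further Notch target genes, chosen because their windows hold the most RBPJ matches, are shown for their sequence context (RefSeq, GRCm38.p6, 250 bases before to 50 after a gene's start, 5′ to 3′ on the gene's strand). Capitals mark the RBPJ core GTGGGAA on either strand (TTCCCAC when read on the other strand). The TCF/LEF core CTTTGNN, with A or T at each N, was also searched on both strands. No TCF/LEF core was found in the windows shown, so no match overlaps one of the other motif. The windows are chr2:26503773-26504072 on the minus strand for Notch1, chr2:137116471-137116770 on the minus strand for Jag1, chr2:119325534-119325833 on the plus strand for Dll4, chr4:154960673-154960972 on the plus strand for Hes5 and chr10:30842734-30843033 on the minus strand for Hey2. The Notch1 window, placed at a RefSeq start, lies inside the gene span given above (26457903 to 26516663), which is from GENCODE.
Notch1: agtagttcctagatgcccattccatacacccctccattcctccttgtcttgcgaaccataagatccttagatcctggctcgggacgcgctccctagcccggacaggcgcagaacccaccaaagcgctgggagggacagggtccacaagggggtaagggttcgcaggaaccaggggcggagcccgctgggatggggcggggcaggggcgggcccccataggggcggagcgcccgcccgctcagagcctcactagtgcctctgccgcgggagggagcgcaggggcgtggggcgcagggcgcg
Jag1: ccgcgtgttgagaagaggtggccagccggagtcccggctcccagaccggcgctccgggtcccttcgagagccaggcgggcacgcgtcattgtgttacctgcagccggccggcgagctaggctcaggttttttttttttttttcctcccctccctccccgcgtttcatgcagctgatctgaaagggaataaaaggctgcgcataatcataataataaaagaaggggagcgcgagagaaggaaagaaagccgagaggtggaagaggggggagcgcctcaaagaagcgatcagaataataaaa
Dll4: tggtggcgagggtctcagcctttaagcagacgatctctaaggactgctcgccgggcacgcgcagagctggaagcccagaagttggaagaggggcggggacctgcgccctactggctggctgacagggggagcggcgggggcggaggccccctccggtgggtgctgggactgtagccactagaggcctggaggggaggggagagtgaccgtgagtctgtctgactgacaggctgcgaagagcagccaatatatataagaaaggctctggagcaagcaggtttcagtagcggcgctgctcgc
Hes5: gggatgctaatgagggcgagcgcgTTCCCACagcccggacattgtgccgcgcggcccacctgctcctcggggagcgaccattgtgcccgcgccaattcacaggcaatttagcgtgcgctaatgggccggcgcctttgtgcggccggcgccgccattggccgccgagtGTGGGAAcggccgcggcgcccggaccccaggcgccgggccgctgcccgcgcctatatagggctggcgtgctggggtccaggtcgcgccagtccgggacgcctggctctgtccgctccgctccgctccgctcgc
Hey2: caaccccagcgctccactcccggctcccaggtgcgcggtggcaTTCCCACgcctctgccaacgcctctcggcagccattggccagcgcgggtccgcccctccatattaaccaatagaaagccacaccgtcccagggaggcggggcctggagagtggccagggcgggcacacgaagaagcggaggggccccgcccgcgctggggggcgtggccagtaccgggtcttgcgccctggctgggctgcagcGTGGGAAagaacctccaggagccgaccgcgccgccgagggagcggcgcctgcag
Promoter entries were found for 8 of the 10 members, with Hes1 and Hey1 missing, and 0 of the 8 held an RBPJ or a TCF/LEF core. Among all 32851 promoters of this length 6.38% held the RBPJ core and 16.9% a TCF/LEF core. Of the 9 listed further targets 7 had an entry: 3 held no RBPJ core, Hes7 and Hspg2 held 1 each, and Hes5 and Hey2 held 2 each, which began 226 and 83 bases before the start in Hes5 and 207 and 4 bases before it in Hey2. A match describes letters and no binding site, and a window without a match says nothing of binding elsewhere. Both genes were low in dermis. Hes5 had 0 to 4 reads in a control library and 4 to 11 in a mutant library, and Hey2 had 1.18, 0.672 and 0.661 FPKM in the controls against 1.29, 0.870 and 1.11 for mutants, with overlapping groups.

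No other gene of the pathway passed the test. Of 62 listed genes for further ligands, ligand trafficking, receptor glycosylation, receptor cleavage, negative regulation, the nuclear complex and further targets, 48 were tested, and 0 were called higher and 0 lower. Their median log2 difference was 0.07, against 0.09 for all tested genes. At an unadjusted p under 0.05, 5 of the 48 were higher (10.4%, against 10.5% of all tested genes) and 0 were lower. After median-of-ratios scaling 5 were higher and 2 lower at that threshold, against 10.5% and 6.14% of all tested genes. In the core of the pathway, the DNA-binding protein gene Rbpj averaged 5.50 ± 1.05 FPKM over controls and 6.58 ± 0.824 over mutants (± SD, n = 3 here and below). Maml3, a coactivator of the Mastermind family, averaged 5.83 ± 0.339 and 4.996 ± 0.536 (limma adjusted p = 0.669 and 0.644). Of the 9 tested genes for receptor cleavage, Adam17, an ADAM sheddase, had a log2 difference of 0.23 and Aph1a, a gamma-secretase subunit, of 0.16 (limma adjusted p = 0.645 and 0.790).

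Genes that act on ligands and receptors had mostly positive differences in the deposited values, and none passed the test. All 5 tested ligand trafficking genes were above 0, as were 71.3% of all tested genes, and after scaling 2 of the 5 were. Among them, the ubiquitin ligase genes Neurl1b and Mib2 had log2 differences of 0.26 and 0.28 (limma adjusted p = 0.531 and 0.538). Pofut1, which adds O-fucose to Notch, averaged 4.88 ± 0.477 FPKM over controls and 6.07 ± 0.851 over mutants, and Lfng, the Fringe enzyme that extends this sugar, 7.75 ± 1.79 and 9.91 ± 1.76 (limma adjusted p = 0.520 and 0.570). Among 11 tested negative regulators, 7 were above 0 in the deposited values, and 5 were after scaling. Numbl, a Numb family adaptor, had the smallest p in the deposited values, with means of 3.24 ± 0.872 FPKM for controls and 5.39 ± 1.09 for mutants (log2 difference 0.60, limma adjusted p = 0.231). Numb went the other way, with means of 15.4 ± 0.485 and 13.2 ± 1.80 (log2 difference -0.21, limma adjusted p = 0.666). After scaling the log2 difference of Numb was -0.32 (limma adjusted p = 0.141). Egfl7, a secreted protein of endothelium that binds Notch and is also among the endothelial markers below, had a difference of 0.42 (limma adjusted p = 0.277).

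The 2 tested genes of the list of further ligands encode microfibril proteins of elastic fibres that can bind Notch proteins. Mfap2 averaged 9.75 ± 4.99 FPKM over controls and 19.1 ± 4.97 over mutants (log2 difference 1.004, limma adjusted p = 0.287), and Mfap5 averaged 13.1 ± 4.03 and 23.5 ± 9.80 (log2 difference 0.76, limma adjusted p = 0.367). Among the 6 tested further targets, the perlecan gene Hspg2, whose tie to Notch is less established, had a log2 difference of 0.47 (limma adjusted p = 0.459) and Hes6 of 0.09 (limma adjusted p = 0.912). Nrarp and Heyl, picked after their values were seen because they are widely used Notch readouts, averaged 15.0 ± 1.12 and 5.73 ± 0.671 FPKM over controls and 15.0 ± 2.22 and 5.41 ± 0.760 over mutants. Their log2 differences were -0.01 (95% interval -0.35 to 0.33; limma adjusted p = 0.992) and -0.07 (95% interval -0.38 to 0.24; limma adjusted p = 0.914).

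Markers of the cells that carry these genes varied between libraries too. In bulk dermis, fewer cells of a type and less RNA per cell cannot be told apart. In the deposited values the 14 endothelial markers summed to 48.7 to 61.8 FPKM in controls and 64.4 to 79.5 in mutants, with no overlap. The nearest libraries were control 3 (61.8) and mutant 3 (64.4), with scaling factors of 0.9996 and 1.05. That gap is no larger than the offset between these libraries, so the separation depends on the scaling. Of the 13 tested, 11 were above 0 (median log2 difference 0.22, 0 called). The 6 lymphatic endothelial markers, led by Pdpn and Lyve1, summed to 10.7 to 13.3 FPKM in controls and 18.0 to 25.5 in mutants, again with no overlap, and 4 of 4 tested were above 0 (median log2 difference 0.48, 0 called). Single endothelial genes, picked after their values were seen, had mutant means of 1.58 (Kdr), 1.55 (Cldn5) and 1.62 (Sox18) times the control means (limma adjusted p = 0.114, 0.384 and 0.398), against 1.48 for Dll4. Log2 differences of the 13 tested endothelial markers ran from -0.07 to 0.56, with the median of 0.22, so these single genes do not stand for the list. The log2 ratio of Dll4 to the sum of the 14 endothelial markers was -6.59, -6.99 and -6.68 in controls and -6.51, -6.40 and -6.45 in mutants. The groups did not overlap on it, and control 1 and mutant 1 were close. Notch4 overlapped between groups on the same ratio. The 12 mural markers, of which Acta2 and Des were highest, summed to 109 to 177 FPKM in controls and 166 to 236 in mutants, and the groups overlapped. Against that sum Notch3 was lower in mutants, with log2 ratios of -4.10, -3.62 and -3.89 in controls and -4.74, -4.22 and -4.18 in mutants. Those 2 markers also belong to smooth and skeletal muscle, so the list is not specific to mural cells.

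The dermis also held abundant epithelial RNA. The 10 keratinocyte markers, led by Sfn and Krt5, summed to 870 to 1105 FPKM in controls and 982 to 1216 in mutants. Against them Notch1 was lower in mutants (log2 ratio -4.84, -4.68 and -4.71 in controls and -5.22, -5.11 and -4.98 in mutants), while Jag2 overlapped. The 12 hair matrix and inner root sheath markers, led by Krt71 and Tchh, were all below 0, while 71.3% of all tested genes were above 0. Their median log2 difference was -0.33, and 0 of 12 were called. Their sum was 6059, 6638 and 6355 FPKM in controls and 6685, 3315 and 5773 in mutants, with mutant 2, in which the deposited values of Jag1 and Notch1 were also lowest, far under the rest. After scaling, Notch1 was lowest in mutant 1. The marker sums were read as deposited and were not scaled, so the library offset remains in them. They were not compared with the scaled values. The 10 fibroblast markers, led by Col1a1 and Col3a1, summed to 2741 to 10511 FPKM in controls and 9537 to 13746 in mutants. In this list 9 were above 0 and 6 did not overlap between groups, with mutants higher, against 71.3% and 13% of all tested genes. Their median log2 difference was 0.97, and 0 were called. The log2 ratio of Notch2 to this sum was -7.63, -6.87 and -8.62 for controls 1 to 3 and -9.05, -8.74 and -8.62 for mutants 1 to 3. Mutant 3 and control 3 were nearly level. The 14 macrophage markers summed to 123 to 221 FPKM in controls and 317 to 584 in mutants, and 14 of 14 were above 0. Of these 13 did not overlap between groups, with mutants higher, against 13% of all tested genes. Among the 14, 1 was called, Fcer1g, a subunit of immunoglobulin Fc receptors (log2 difference 1.299, limma adjusted p = 0.0242), against 0.143% of all tested genes called higher. The sums of 8 skeletal muscle markers (320 to 1278 FPKM in controls, 639 to 1366 in mutants) and 6 Schwann cell markers (47.7 to 84.6, then 70.7 to 104) overlapped. The part of these shifts in the values of the Notch genes was not tested. No share of other genes that separate between groups was taken for any of the ratios to marker sums.

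**Figure D4:**
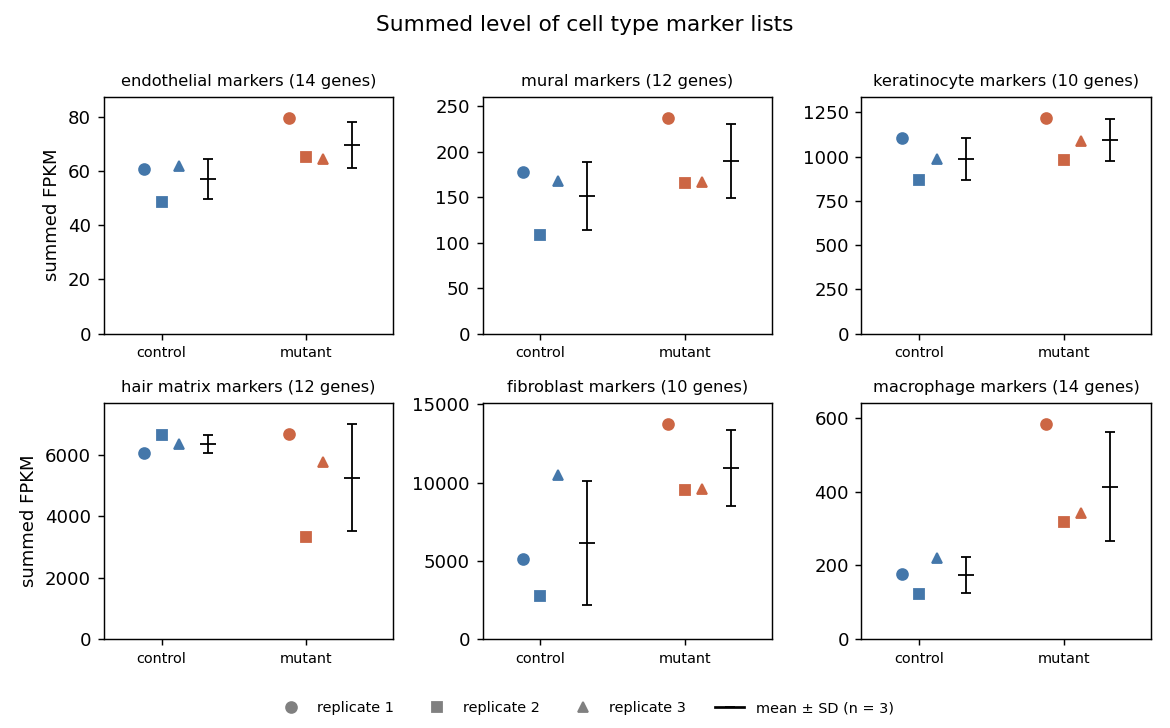
Summed FPKM (vertical axis, from 0) of 6 lists of cell type markers in each library, controls in blue and mutants in orange, with the replicate number as marker shape and mean ± SD (n = 3) in black. In these deposited values, endothelial and macrophage sums do not overlap between groups, and the hair matrix sum of mutant 2, 3315 FPKM, is the lowest of the 6 libraries. The endothelial gap between control 3 and mutant 3 is no larger than the library offset between them.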

How the data were processed

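Total RNA of ventral dermis from 3 mutant and 3 control mice was made into stranded paired-end libraries, per the labels' protocols. The labels give each library its own mouse, so the replicate error is that between mice. GSNAP, HTSeq and build mm10 are named without versions, per the submitters' processing notes. The annotation, the gene lengths and the counting options are not stated in the sources used here, so reads of overlapping genes cannot be told apart. The authors deposited FPKM values, 1 per gene and library. Locations come from GENCODE M21 (GRCm38, the same build as mm10).

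Values were compared as log2(FPKM + 1), a scale that understates the change of low genes, for the 12560 genes whose mean reached 1 FPKM. The test was limma 3.58.1 (R 4.3.3) with an intensity trend, two-sided, adjusted over all genes tested, at a threshold of 0.05. An exact permutation test of 3 against 3 cannot go below p = 0.1. The values of a gene are multiples of what 1 read is worth, which gave back reads for 23412 of 23412 genes at a relative tolerance of 3e-09. Of these, 1820 genes at 0 and 1448 genes seen in 1 library, set to 1 read, allow no check. Reads served for depth and for a limma-voom alternative, whose library sizes were set by median-of-ratios scaling of the reads. Both steps were tested on simulated data. Pairs of libraries of a group differed by more than counting noise.

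The members and lists were chosen with earlier results of these data known. Named genes are the 10 members, the 2 genes with the smallest p of each other pathway list, Ctnnb1, Axin2, Lef1, Xist, and the 2 most abundant markers of a list. Hes5, Hey2, Hes7, Nrarp, Heyl, Numb, Kdr, Cldn5, Sox18 and Fcer1g were named outside this rule, after their values were seen. One gene was dropped from the nuclear list because it does not belong to the pathway.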

Additional observations from a re-analysis of the deposited data

How the results depend on the processing

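None of the tested members was called under any of the 18 alternatives, 15 planned and 3 added after seeing the data. The added ones were median-of-ratios scaling without control 2 (lowest limma adjusted p = 0.392), without mutant 2 (0.358), or with library sex as a covariate. Fits with a library sex term rest on control 3 alone among the controls. An edgeR-type count test was not run, since the deposited unit is FPKM. Notch1, Notch2, Notch3 and Jag1 stayed below 0 and Hey1 above 0 wherever they were tested. Their log2 differences ran from -0.33 to -0.13 (without mutant 2), from -0.22 to -0.013 (without mutant 2), from -0.36 to -0.083 (without control 3), from -0.27 to -0.015 (without mutant 2) and from 0.069 (scaling with library sex) to 0.48. The lowest values of Notch1 and Notch2 also came without mutant 2, in the scaled fit. Jag2 was -0.058 with median-of-ratios scaling, -0.048 with quantile normalization, -0.063 with limma-voom on recovered reads and -0.091, -0.14 and -0.055 with the 3 added ones in turn. Dll1 was -0.011, -0.054, -0.024, -0.0074, -0.060 and 0.045 under these, and Hes1 was -0.045, -0.039, -0.046, -0.012, -0.021 and -0.041. Leaving out 1 library gave Jag2 from -0.046 (without control 2) to 0.12, Dll1 from 0.029 to 0.13 and Hes1 from -0.035 (without mutant 1) to 0.18. The low reads of Dll4 and Notch4 limit what can be said of them.

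Over all genes, 18 were called higher and 0 lower. The higher count was 9 with pseudocount 0.1, 4 without a filter, 28 with median-of-ratios scaling, 32 with quantile normalization, 10 without a trend, 10 with library sex as a covariate (1 lower) and 80 with limma-voom. Leaving out 1 library gave 3 (without mutant 2) to 198 (without control 3) higher and 0 to 4 lower. With the replicate number as a block, 67 genes were higher and 1 lower, and no member was called (lowest limma adjusted p = 0.386). Same-numbered deviations correlated across genes at 0.00, 0.04 and -0.08, and differently numbered ones from -0.27 to 0.28. Deviations within a group of 3 are tied to each other, so these correlations cannot settle whether the numbers pair the mice. Of the other pathway genes 35 of 48 were above 0. That count was 21 of the 32 left by the mean FPKM 5 filter, and of 48 it was 21 with median-of-ratios scaling, 19 with quantile normalization and 22 with limma-voom, and leaving out 1 library gave 21 (without mutant 1) to 41. The causes were not tested.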
